A study of Mus musculus with 6 samples.

Results

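Ribosome-bound RNA pulled down from the brains of control RiboTag mice was compared with RNA of whole brain homogenate kept before a pull-down, to describe which cells and which classes of RNA the tagged ribosomes carry. Of the 6 libraries of the series, 3 were used: 2 control immunoprecipitates (IP replicates 1 and 2) and 1 control input. The members are the 24411 genes with a value in these libraries, of which 15509 (63.5%) had enough counts to be tested. All 3 libraries came from mice of genotype NG2CreERTM;Rpl22HA/+ that received tamoxifen at 100 mg/kg per day on 5 days from 8 weeks of age and were perfused with cold saline 1 month later for whole-brain homogenate. Brains of 3 mice were pooled for a sample, 10% of the cleared homogenate served as input, and the rest was incubated with HA antibody and magnetic beads. Every mouse carried the driver, the tagged allele and the drug, so no library shows what the beads hold without a tag. The sample titles number the IPs as biological replicates. Which mice went into each pool, and which pool gave the input, is not said. The sample labels give the cell type as oligodendrocytes for the input too, although it is RNA of the whole brain.

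In a RiboTag mouse, Cre recombinase replaces the last exon of the ribosomal protein gene Rpl22 with a copy that carries an HA epitope, so that ribosomes of recombined cells can be caught together with the mRNAs they are translating. Here Cre was under control of the gene for NG2, the surface proteoglycan encoded by Cspg4, and became active only with tamoxifen. In adult brain NG2 is made by oligodendrocyte precursors, which divide and mature into myelinating oligodendrocytes, and also by pericytes, the contractile cells around capillaries. A cell that was recombined as a precursor keeps the tagged ribosomes after it has matured.

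The libraries held 20754765 (IP replicate 1), 23930812 (IP replicate 2) and 21129973 counts (input), so that 3 counts were worth 0.125 to 0.145 CPM (counts scaled to a common library size). CPM values below were scaled with edgeR's trimmed mean of M values (TMM) factors. The IP libraries were close to each other, with a median absolute log2 difference of 0.09 over tested genes and 97.2% of these genes within 2-fold. A chi-square of their counts over genes, divided by its degrees of freedom, was 2.19 between the IPs, where sampling noise alone gives about 1, and 375 to 392 between an IP and the input. By edgeR's quasi-likelihood F test, adjusted after Benjamini and Hochberg, 70.8% of tested genes differed between IP and input at an adjusted p under 0.05. Higher in the IP were 35.7% (5529 genes) and lower 35.2% (5454), and 29.9% passed with a difference over 2-fold (15.1% higher and 14.8% lower). These percentages are the background for each count below, where "rose" and "fell" mean that a gene passed this test higher or lower in the IP. The gene lists below were chosen with earlier results of these data known. Their counts therefore describe the listed genes and are no independent test of a cell type or class. The median log2 ratio of IP to input over all tested genes was 0.01, and the quartiles lay at -0.65 and 0.66.

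The spread behind these calls came from the IP pair alone, and the lone input was assumed to vary like it. The fitted biological coefficient of variation (BCV, the relative spread between samples beyond counting error) was 2.85%. With a BCV of 0.4 set by hand, 476 genes were higher and 432 lower. The p-values therefore reflect only how far these samples spread, and that spread may be technical. For 380 genes the adjusted p was too small to be represented, and the log2 ratio with its standard error (SE, written after ±) is given instead. The SE was calculated back from the F statistic of the test. It too rests on the spread of the IP pair and holds no measured variation of the input.

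The cell type markers separated into 5 that rose and 3 that fell. Pdgfra, the receptor by which platelet-derived growth factor drives precursor division, was at 2292 and 2287 CPM in the IPs and 54.8 CPM in the input. Cspg4, the NG2 gene itself, stood at 913 and 926 against 22.2 CPM. Gpr17, a receptor of precursors committed to differentiate, was at 1408 and 1428 against 36.7 CPM. These 3 genes were 41.8-, 41.4- and 38.6-fold above input, with log2 ratios of 5.38 ± 0.04, 5.37 ± 0.05 and 5.27 ± 0.04. Mag, the myelin-associated glycoprotein of mature oligodendrocytes, was at 1670 and 1627 CPM against 143 CPM (log2 3.53 ± 0.03). Pdgfrb, the growth factor receptor of pericytes and other mural cells, was at 310 and 314 CPM against 24.9 CPM (3.65 ± 0.06). In each of these 5 genes both IP libraries lay at least 11-fold above the input.

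Markers of neurons, astrocytes and microglia moved the other way. Snap25, a neuronal protein of synaptic vesicle fusion, was at 342 and 349 CPM in the IPs and 2063 CPM in the input (log2 -2.58 ± 0.03). Gja1, the astrocyte gap junction protein connexin 43, was at 18.1 and 18.4 against 145 CPM (-2.99 ± 0.07). Cx3cr1, the fractalkine receptor of microglia, was at 6.38 and 6.08 against 37.7 CPM (-2.60 ± 0.13, edgeR quasi-likelihood, Benjamini-Hochberg adjusted p = 3.39e-83). Both IPs lay below the input for all 3 genes, by 5.97-, 7.94- and 6.05-fold, and none of the 3 was at 0. All 8 markers also passed with DESeq2 and with a BCV of 0.4. In these bulk samples, the number of tagged cells of a type and the tagged RNA per cell cannot be told apart. Nor can RNA of tagged ribosomes be told apart from RNA that the beads hold without a tag.

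**Figure D1:**
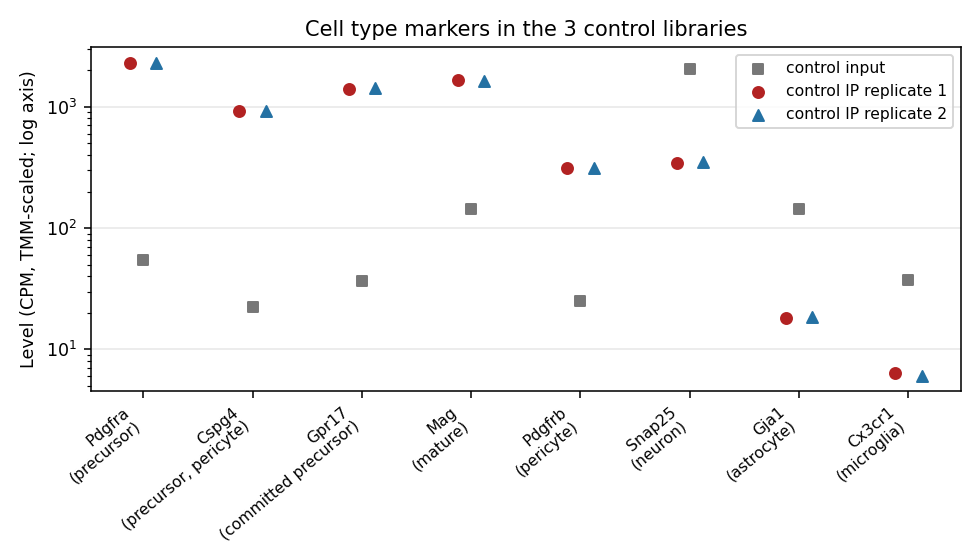
Level of the 8 cell type markers in the control input (grey squares) and in control IP replicates 1 (red circles) and 2 (blue triangles), in TMM-scaled CPM on a log axis. Pdgfra, Cspg4, Gpr17, Mag and Pdgfrb lie far above the input in both IPs, and Snap25, Gja1 and Cx3cr1 lie below it.

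The genes that the driver, the tag and the markers rest on have these positions on genome build mm10. Cspg4 lies on chromosome 9 from 56865033 to 56899870 (plus strand), Pdgfra on chromosome 5 from 75152292 to 75198215 (plus strand) and Mag on chromosome 7 from 30899176 to 30914873 (minus strand). Rpl22, which carries the tag, lies on chromosome 4 from 152325742 to 152334071 (plus strand). Its own level was no higher in the IP: it was at 49.4 and 55.2 CPM against 69.8 CPM in the input (log2 -0.41 ± 0.07, edgeR quasi-likelihood, Benjamini-Hochberg adjusted p = 1.17e-08). Counts cover the whole gene, so tagged and untagged copies cannot be told apart.

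Precursor genes as a group were higher in the IP. All 29 genes of the list rose, 27 of them over 2-fold, with a median log2 of 3.01, and 20 still passed with a BCV of 0.4. Summed over the list, the level was 13277 and 13365 CPM in the IPs and 1905 CPM in the input. Among the transcription factors that set oligodendrocyte identity, Olig2 was at 350 and 354 CPM against 14.9 CPM (4.56 ± 0.06) and Olig1 at 1454 and 1482 against 71.1 CPM (4.37 ± 0.04). Sox10, which later switches on myelin genes, was at 713 and 722 against 46.9 CPM (3.93 ± 0.04). The secreted and surface matrix proteins of precursors were as far above input. Matn4, a matrilin that links matrix filaments, was at 236 and 247 CPM against 6.68 CPM (5.17 ± 0.08). Vcan, the large proteoglycan versican, was at 500 and 499 against 23.0 CPM (4.44 ± 0.05). Neu4, a sialidase that trims sialic acid from glycans, was at 183 and 177 against 7.47 CPM (4.59 ± 0.08).

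Some members of the list lay nearer to the input, among them genes that neurons or astrocytes also make. Whether such sharing sets the ratio was not tested. Bcan, the brain proteoglycan brevican, had a log2 ratio of 1.89 ± 0.03 and Gpr37l1, an orphan receptor also of astrocytes, 1.19 ± 0.05. Gria3, an AMPA receptor subunit, was the lowest of the list with 248 and 244 CPM against 231 CPM (0.09 ± 0.04, edgeR quasi-likelihood, Benjamini-Hochberg adjusted p = 0.0361). That call of Gria3 was lost with DESeq2, with library totals and with a BCV of 0.1, and its ratio was -0.05 with the transcript length offset.

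Genes of committed precursors and newly formed oligodendrocytes all rose: 25 of 25, 24 of them over 2-fold, with a median log2 of 3.24 and 18 passing with a BCV of 0.4. Enpp6, a choline phosphodiesterase used to mark cells that have just begun to myelinate, was at 76.6 and 79.1 CPM against 5.70 CPM (3.77 ± 0.11). Bmp4, a secreted growth factor, was at 32.6 and 38.3 CPM against 2.97 CPM (3.58 ± 0.16). Bcas1, a cytoplasmic protein of early myelinating cells, reached 1025 and 1034 CPM against 109 CPM (3.24 ± 0.04), and Tnr, the matrix glycoprotein tenascin-R, 1356 and 1382 against 144 CPM (3.25 ± 0.03). The lowest ratio of the list belonged to Rap2a, a small GTPase also found in neurons, with 226 and 227 against 115 CPM (0.98 ± 0.05).

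Mature oligodendrocyte genes rose as well, 34 of 36, with a median log2 of 2.43. Over 2-fold were 31, and 18 passed with a BCV of 0.4. Mbp, which compacts the cytoplasmic faces of the myelin membrane, was at 6128 and 6211 CPM in the IPs against 994 CPM in the input (2.63 ± 0.02), and Cnp at 2992 and 3030 against 267 CPM (3.50 ± 0.03). Mog, on the outermost myelin surface, had 287 and 293 CPM against 41.0 CPM (2.82 ± 0.05). Of Myrf, the transcription factor needed for myelin gene expression, the levels were 630 and 622 against 72.9 CPM (3.10 ± 0.04). Summed over the 36 genes the IPs held 32842 and 33086 CPM and the input 5405 CPM.

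A few members lay near or under the input. Klk6, a secreted protease, was at 0.585 and 0.380 CPM in the IPs against 2.18 CPM (log2 -2.18 ± 0.56, edgeR quasi-likelihood, Benjamini-Hochberg adjusted p = 0.000196). Apod, the lipid carrier apolipoprotein D, was at 115 and 114 against 127 CPM (-0.15 ± 0.05), a call lost with DESeq2 and with the length offset. Hapln2, a link protein of the matrix at nodes of Ranvier, had 17.7 and 16 CPM against 12.9 CPM (0.39 ± 0.14), and Ptgds, a prostaglandin synthase also made by meninges, 0.98 ± 0.03. Klk6 fell while its list rose, and its IP levels are those of few reads.

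The list with the highest median was that of pericytes. All 19 genes rose, each over 2-fold, with a median log2 of 3.82, and 17 passed with a BCV of 0.4. Its summed level was 2249 and 2276 CPM in the IPs against 157 CPM in the input, a sum that follows the choice and length of genes. Abcc9 and Kcnj8 encode the regulatory and pore subunits of the pericyte's ATP-sensitive potassium channel. Abcc9 was at 250 and 249 CPM against 11 CPM (4.50 ± 0.07) and Kcnj8 at 51.8 and 60.7 against 3.34 CPM (4.08 ± 0.14). Rgs5, a regulator of G protein signalling, was at 255 and 255 against 19.5 CPM (3.71 ± 0.06), Notch3 at 247 and 255 against 13.5 CPM (4.22 ± 0.07), and Vtn, the adhesion protein vitronectin, at 690 and 677 against 42.1 CPM (4.02 ± 0.05). The ends of the list were Slc38a11, of an amino acid transporter family, with 14.5 and 14.9 against 0.603 CPM (4.59 ± 0.29), and Slc6a20a, another amino acid transporter, with 31.9 and 33.4 against 8.81 CPM (1.89 ± 0.13).

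Vascular smooth muscle genes, of the contractile cells around larger vessels, were higher too. Of 18 tested genes 17 rose and 1 fell, with a median log2 of 2.19, and with a BCV of 0.4 the counts were 6 and 1. Myh11, the smooth muscle myosin heavy chain, was at 38.2 and 37.4 CPM against 4.08 CPM (3.21 ± 0.15), and Acta2, smooth muscle actin, at 22.0 and 25.5 against 2.41 CPM (3.30 ± 0.19). The gene that fell was Pcp4l1, a small protein that neurons also make, at 23.9 and 22.5 against 149 CPM (-2.69 ± 0.07). The highest fitted ratio of the list, that of the contractile regulator Cnn1, rested on 1 input count.

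Endothelial genes, from cells that lie against pericytes, were mostly lower: 17 of 22 fell, 3 rose, and the median log2 was -1.02. Cldn5, the tight junction claudin, was at 2.48 and 2.28 CPM in the IPs against 14 CPM (-2.55 ± 0.21), and Ly6c1, a surface antigen, was the lowest at 0.39 and 1.27 against 6.49 CPM (-2.92 ± 0.33). Flt1, a receptor of vascular endothelial growth factor, was closer at 25 and 24.7 against 33.0 CPM (-0.41 ± 0.10). The 3 that rose were Mfsd2a, Esam and Eng. Mfsd2a, the transporter of lysophosphatidylcholine with omega-3 fatty acids, was at 103 and 104 CPM against 10.1 CPM (3.35 ± 0.09), a ratio in the range of the pericyte and oligodendrocyte genes. The adhesion molecule Esam was at 14.4 and 14 against 6.03 CPM (1.24 ± 0.18), and the TGF-beta co-receptor Eng at 26.2 and 25.5 against 16.8 CPM (0.62 ± 0.12). With a BCV of 0.4, 1 gene was higher (Mfsd2a) and 3 lower.

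Fibroblast genes were mixed, with 5 higher and 8 lower of 17 tested and a median log2 of -0.33, which was -0.07 among genes with a mean of at least 5 CPM. Those that rose encode matrix proteins: Col3a1 (1.05 ± 0.26), Mgp (1.0 ± 0.12), Col6a1 (0.55 ± 0.09), Lama1 (0.38 ± 0.17) and Col1a2 (0.31 ± 0.12). The small proteoglycans that mark meningeal fibroblasts fell, Dcn from 6.82 CPM in the input to 1.66 and 1.52 CPM in the IPs (-2.10 ± 0.28) and Lum from 1.39 to 0.0487 and 0.211 CPM (-3.31 ± 0.83). The calls of Lama1 and Col1a2 were lost with DESeq2, and Lama1 was at -0.02 with the length offset.

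**Figure D2:**
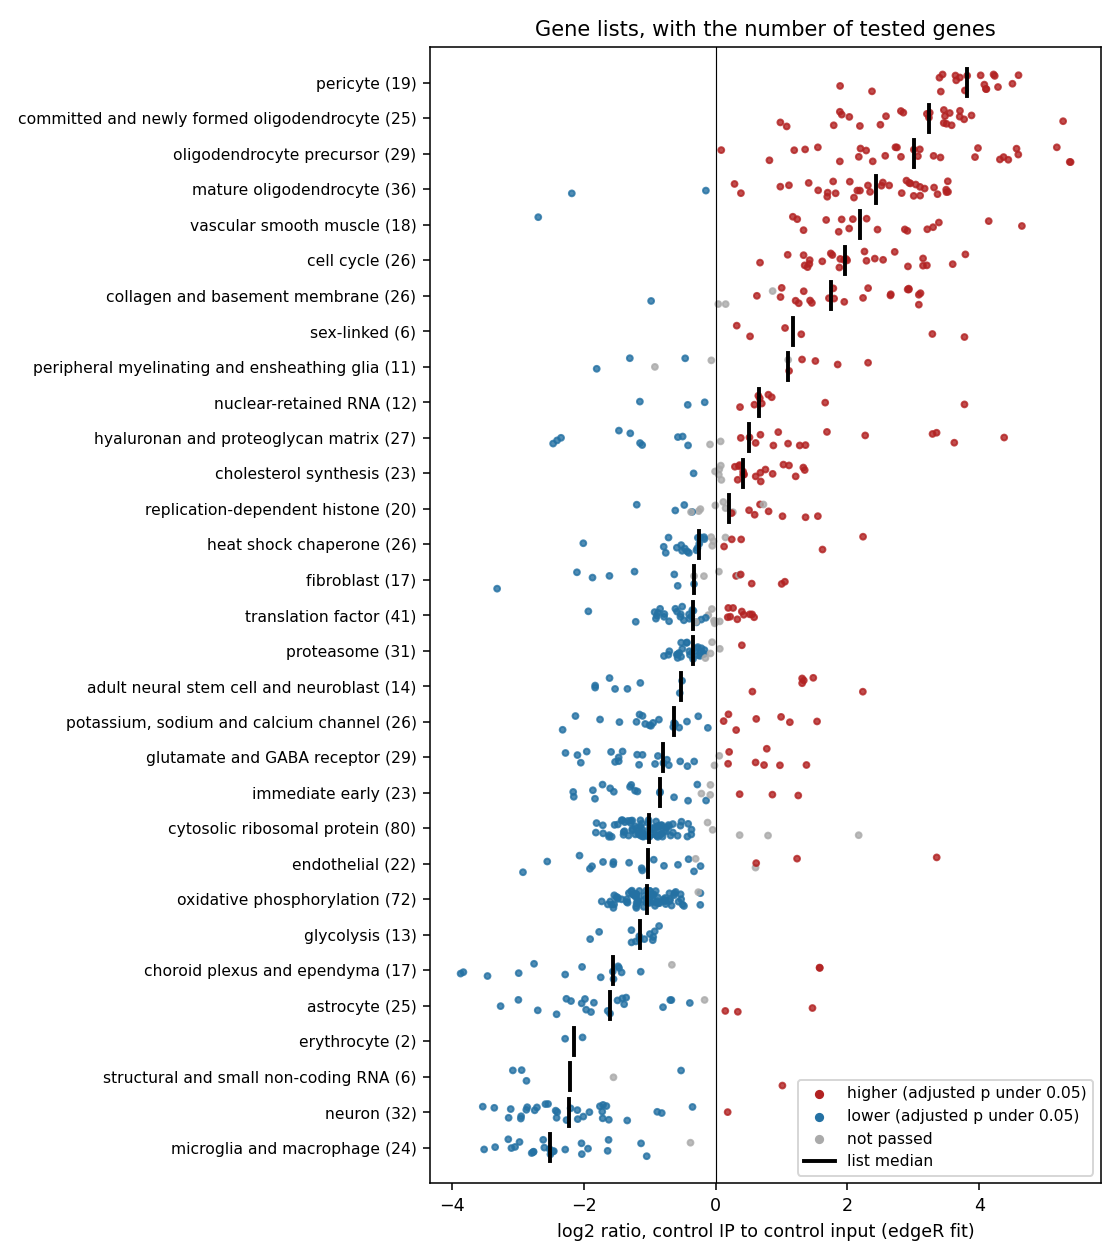
Log2 ratio of control IP to control input for every tested gene of 31 lists (edgeR fit), each point a gene, with the number of tested genes in brackets and the list median as a black bar. Red points rose, blue points fell, grey points did not pass. Pericyte and oligodendrocyte lists lie at the top and neuron and microglia lists at the bottom.

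Neuron genes fell in 31 of 32 cases, 28 over 2-fold, with a median log2 of -2.23, and 19 passed with a BCV of 0.4. Nrgn, the calmodulin-binding neurogranin of forebrain dendrites, was at 170 and 170 CPM against 1311 CPM (-2.95 ± 0.03), and Syt1, the calcium sensor of vesicle release, at 329 and 340 against 1536 CPM (-2.20 ± 0.03). Slc17a7 of glutamatergic and Gad1 of GABAergic neurons both fell, the first from 917 to 154 and 162 CPM (-2.54 ± 0.03), the second from 408 to 90.2 and 101 CPM (-2.09 ± 0.04). The lowest was the neuropeptide Vip with 1.90 and 1.44 against 19.2 CPM (-3.53 ± 0.21). Camk2a, the kinase subunit whose mRNA travels into dendrites, stood nearer at 1003 and 1003 against 3284 CPM (-1.71 ± 0.02). The gene that rose was Meg3, an imprinted long non-coding RNA, at 2456 and 2448 against 2158 CPM (0.18 ± 0.02), and it was at -0.39 with the length offset. Neuron RNA was still present in the IP, where the 32 genes summed to 8717 and 8763 CPM, against 23024 CPM in the input.

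Astrocyte genes fell in 21 of 25 cases and rose in 3, with a median log2 of -1.60 (0 higher and 7 lower with a BCV of 0.4). Agt, angiotensinogen, was the lowest at 2.05 and 2.15 CPM against 20.2 CPM (-3.26 ± 0.19). The water channel Aqp4 was at 22.7 and 22.4 against 87.8 CPM (-1.96 ± 0.08) and the glutamate transporter Slc1a2 at 1389 and 1376 against 3873 CPM (-1.49 ± 0.02). Those that rose were Hepacam, a glial adhesion molecule that oligodendrocytes share, at 237 and 246 against 87.1 CPM (1.47 ± 0.05), Mfge8, a bridging protein in the uptake of dying cells (0.34 ± 0.05), and the protease Htra1 (0.15 ± 0.05), whose call was lost with DESeq2.

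Microglia and macrophage genes had the lowest median of all lists, -2.51, with 23 of 24 lower, 0 higher and 16 lower with a BCV of 0.4. C1qc, of the complement C1q complex, was at 3.17 and 1.56 CPM against 26.4 CPM (-3.51 ± 0.18), and the purinergic receptor P2ry12 at 2.48 and 1.69 against 12.7 CPM (-2.61 ± 0.22). Siglech, a sialic acid receptor, did not pass at 7.70 and 6.12 against 8.95 CPM (-0.38 ± 0.19, edgeR quasi-likelihood, Benjamini-Hochberg adjusted p = 0.0623). With library totals its ratio was -0.42 and passed.

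Of choroid plexus and ependyma genes 14 of 17 fell and 2 rose (median -1.56), and with DESeq2 7 fell. Ttr, the thyroxine carrier transthyretin and the main product of choroid plexus, fell from 475 CPM to 30.6 and 34.3 CPM (-3.87 ± 0.05). Foxj1, the transcription factor of motile cilia, was at 20.2 and 22.2 against 7.10 CPM (1.58 ± 0.15), and Rarres2, the secreted chemerin, at 12.3 and 10.0 against 3.71 CPM (1.58 ± 0.21). Among genes of peripheral myelinating and ensheathing glia, 5 rose and 3 fell of 11 (median 1.10, but 0.46 without IP replicate 2 and 0.52 with no filter on low counts), and DESeq2 called 3 higher and 2 lower. Fabp7, a fatty acid binding protein found in several glial types, was at 56.1 and 56.0 against 11.3 CPM (2.31 ± 0.11). Egr2, the Schwann cell transcription factor (-1.30 ± 0.26), Ngfr, the neurotrophin receptor p75 (-1.80 ± 0.25), and Frzb, a secreted Wnt inhibitor (-0.46 ± 0.14, lost with DESeq2), fell.

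Genes of adult neural stem cells and neuroblasts were mixed, with 6 higher and 8 lower of 14, with a median of -0.52 that was 0.55 among genes with a mean of at least 5 CPM. Prom1, the membrane protein CD133, was at 41.1 and 38.5 against 8.44 CPM (2.23 ± 0.12), and Dcx, the microtubule protein doublecortin, at 69.8 and 66.5 against 27.4 CPM (1.31 ± 0.08). The interneuron factor Dlx2, in contrast, was at 2.63 and 1.90 against 7.98 CPM (-1.83 ± 0.25). Of 6 erythrocyte genes the 2 tested fell, Alas2 of haem synthesis (-2.28 ± 0.17) and the anion exchanger Slc4a1 (-2.02 ± 0.28). The 4 globin genes, Hbb-bs among them, had 0 counts in all 3 libraries. The counter and its annotation are not known, so this sets no limit on their true level.

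Proliferation genes rose throughout: 26 of 26, 25 over 2-fold, with a median log2 of 1.97. With DESeq2 20 passed and with a BCV of 0.4 the number was 7. Mki67, the nuclear antigen of cycling cells, was at 20.8 and 17.9 CPM in the IPs against 2.55 CPM in the input (2.92 ± 0.20). Top2a, the topoisomerase of dividing chromosomes, was at 18.4 and 20.2 against 2.18 CPM (3.15 ± 0.20). Pcna, a polymerase clamp with roles outside division, had the lowest ratio with 39.2 and 36.7 against 23.7 CPM (0.67 ± 0.10). Both IPs lay above the input for all 26 genes. Cdk1, which had the highest fitted ratio, had 3 counts in the input.

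The 10 largest rises among genes with a mean of at least 20 CPM began with 4 genes given above, Pdgfra, Cspg4, Gpr17 and Matn4. Then followed Tmem255b (4.87 ± 0.19), Neu4, Olig2, 5730559C18Rik (4.55 ± 0.14), Abcc9 and Sema3d, a secreted axon guidance protein (4.44 ± 0.08). Sema3d was at 181 and 174 CPM against 8.16 CPM, and Tmem255b at 35.3 and 35.7 against 1.21 CPM. Among the 10 largest falls, that of Gm20594 was the largest, with 2.83 and 3.25 CPM against 71.2 CPM (-4.54 ± 0.12). This gene is annotated as coding, with 111 coding bases in a transcript of 449. The counts do not show which RNA its reads came from. After Ttr came the peptide precursors Penk of enkephalin, from 459 to 51.4 and 52.8 CPM (-3.14 ± 0.04), and Npy, from 72.0 to 7.75 and 8.91 CPM (-3.11 ± 0.10). Sepp1, the selenium carrier selenoprotein P (-3.07 ± 0.06), Rmrp, the lysosomal protease Ctss of microglia (-3.04 ± 0.11), Vstm2l (-3.01 ± 0.09), Gja1 and the somatostatin gene Sst (-2.95 ± 0.07) made up the rest.

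**Figure D3:**
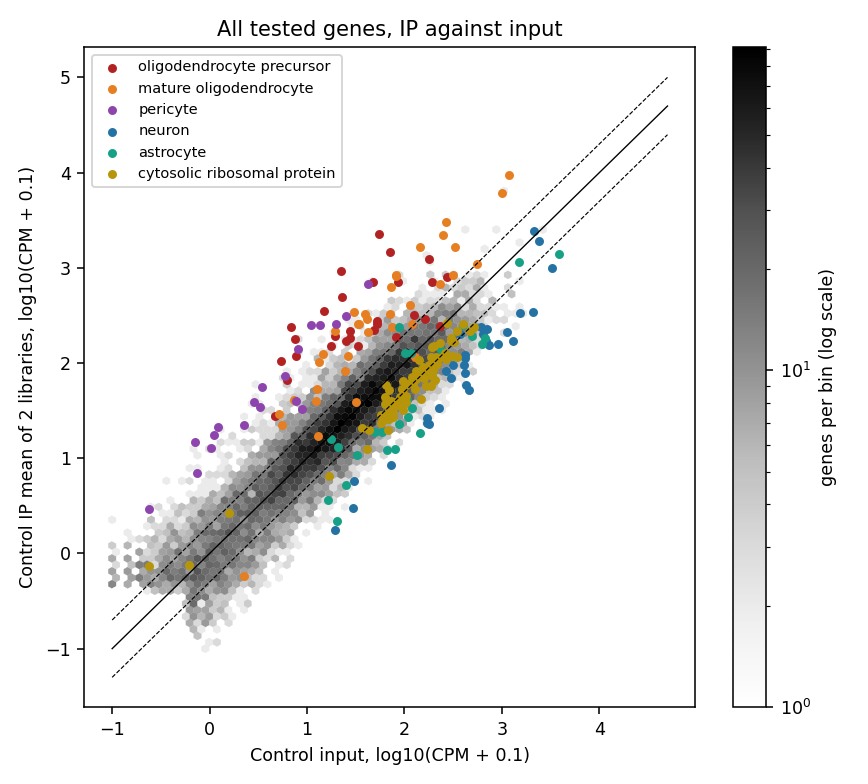
Mean level of each of 15509 tested genes in the control IP libraries against the control input, both as log10(CPM + 0.1), in grey bins shaded by the number of genes, with 6 lists as coloured points. The solid line marks equal levels and the dashed lines 2-fold. Most precursor, mature oligodendrocyte and pericyte genes lie above the upper dashed line, most neuron and astrocyte genes below the lower one, and of 80 ribosomal protein genes 43 fell by over 2-fold.

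Among the genes that took most counts in the IP were the ribosomal RNA gene Rn45s and mRNAs of the submembrane skeleton and of myelin. Sptan1, the alpha spectrin, was at 14704 and 14207 CPM against 1205 CPM (3.58 ± 0.02), more counts than Mbp took. Sptbn1, a beta spectrin that pairs with it, was at 8515 and 8124 against 879 CPM (3.24 ± 0.02). Dst, a giant linker between filament systems, was at 5274 and 5104 against 667 CPM (2.96 ± 0.02). Ppp1r9a, the actin-binding neurabin, stood at 4103 and 3984 against 464 CPM (3.12 ± 0.03). Sptan1, Sptbn1, Dst and Ppp1r9a were thus 7.77- to 12-fold above input, beside 6.2-fold for the myelin gene Mbp and 11.3-fold for Cnp. No library shows what the beads hold without a tag, so the cell source of these mRNAs cannot be told.

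Per kilobase of transcript, a rough way to compare levels of different genes, the order changed. The length used was that of the annotated transcript with the longest coding sequence, which need not be the one expressed. For Ppp1r9a it was 3975 bases, 3876 of them coding, so the order of genes with close values is uncertain. Mbp, with a mean of 2476 CPM per kb in the IP, was above Sptan1 with 1906. Ppp1r9a stood at 1017, Sptbn1 at 983 and Dst at 224 CPM per kb. In the input the same measure was 399 for Mbp and 159 for Sptan1. Among the genes with most counts in the input were Rn45s, the nuclear RNA Malat1 (8790 CPM), the axonal motor Kif5a (3935), Slc1a2, Lars2 (3699), Rpph1, Camk2a, the dendritic microtubule protein Map1a (2810) and the amyloid precursor App (2453). App did not pass, with 2485 and 2451 CPM in the IPs (log2 0.01 ± 0.02, edgeR quasi-likelihood, Benjamini-Hochberg adjusted p = 0.723), and it was at -0.33 with the length offset.

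Genes of the protein-making machinery itself were lower in the IP. Of 80 tested cytosolic ribosomal protein genes 75 fell, 0 rose and the median log2 was -1.01, and the same 75 to 0 was counted with DESeq2. With a BCV of 0.4, 0 fell. Their summed level was 6251 and 6352 CPM in the IPs and 12265 CPM in the input. Rps29 was the lowest at 20.2 and 18.8 against 68.5 CPM (-1.81 ± 0.09). Rplp1, of the ribosomal stalk, was at 118 and 115 against 346 CPM (-1.57 ± 0.04), Rpl41 at 58.6 and 56.9 against 167 CPM (-1.53 ± 0.06) and Rpsa at 235 and 239 against 513 CPM (-1.12 ± 0.03). The paralog of the tagged protein, Rpl22l1, was at 7.07 and 5.91 against 16.8 CPM (-1.38 ± 0.16), a larger fall than that of Rpl22 (-0.41). Rpl34, with 3 input counts, had the highest value of the list and did not pass (edgeR quasi-likelihood, Benjamini-Hochberg adjusted p = 0.0587). Ribosomal protein genes have many processed pseudogenes, so how reads were shared among copies bears on these levels.

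Messages of ribosomal proteins and of several translation factors begin with a run of pyrimidines, the terminal oligopyrimidine start, through which growth signals control their loading on ribosomes. The first 20 bases at the annotated RefSeq start (build GRCm38.p6) are shown for the 6 ribosomal protein genes whose run, in capitals, had at least 9 bases, beside their values in the IP and input. The limit of 9 was chosen after the values were seen.
Fau: CTTCCTCTTTCTTgactcca
Rpl15: CTTCCTTTCCTCTggcggca
Rpl35: CTCTTTCTCTCgaaccaggc
Rps10: CTTCCTTTCCagcctccgcc
Rps18: CTCTCTTCCacaggaggcct
Rps6: CTCTTTTTCgtgacgcctcc
They lie at chr19:6057947-6057966 (plus strand), chr14:18270967-18270986 (minus), chr2:39005112-39005131 (minus), chr17:27635225-27635244 (minus), chr17:33955646-33955665 (minus) and chr4:86857348-86857367 (minus). Fau was at 84.7 and 81.6 CPM against 130 CPM (log2 -0.65), Rpl15 at 38.2 and 36.5 against 62.8 CPM (-0.75), Rpl35 at 53.4 and 54.5 against 129 CPM (-1.26). Rps10 was at 37.1 and 35.9 against 83.6 CPM (-1.20), Rps18 at 61.8 and 60.9 against 123 CPM (-1.0) and Rps6 at 115 and 116 against 211 CPM (-0.87). In each of the 6 both IP levels were below the input.

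Such a start, a C followed by at least 4 pyrimidines on the transcribed strand, was found at 353 of 11829 tested genes with a start sequence (2.98%), and at 2.51% of all starts in the table. Their median log2 was -0.14, against 0.01 for other starts. Among ribosomal protein genes 14 of 60 had it at the annotated base, with a median of -1.01 against -0.95 for the 46 that did not. With ribosomal protein and translation factor genes set aside, the medians were -0.07 (337 genes) and 0.01 (11401 genes). A start annotated a few bases off hides the run, so these shares say only what the annotated base shows.

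Translation factors were less displaced, with 24 lower and 10 higher of 41 and a median log2 of -0.34 (-0.20 with the length offset). Eef1a1, which brings aminoacyl-tRNA to the ribosome, was at 836 and 832 CPM against 1184 CPM (-0.51 ± 0.03). Its relative Eef1a2, the form of neurons and muscle, fell further, from 1241 to 324 and 328 CPM (-1.93 ± 0.03). Eef2, the translocation factor, was at -0.37 ± 0.03, the poly(A)-binding protein Pabpc1 at -0.34 ± 0.04 and Tpt1, a growth-related protein, at -0.90 ± 0.03. The highest was Eif3a, the scaffold of initiation factor 3, with 439 and 423 against 287 CPM (0.59 ± 0.03).

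Housekeeping genes of energy supply fell in the same way. Of 72 oxidative phosphorylation genes 71 fell and 0 rose, with a median log2 of -1.03. Cox7b was at 35.6 and 36.0 CPM against 119 CPM (-1.73 ± 0.07), Cox8a at 47.8 and 48.7 against 141 CPM (-1.55 ± 0.06), and Ndufv3 was the highest at -0.23 ± 0.08. All 13 glycolysis genes fell (median -1.15), among them Tpi1 from 253 to 64.9 and 70.3 CPM (-1.90 ± 0.05) and Gapdh from 883 to 365 and 364 CPM (-1.27 ± 0.03). Proteasome genes, also made in every cell, were nearer to the input with 25 lower and 1 higher of 31, 0 of them past 2-fold, and a median of -0.34 (-0.18 with the length offset). The member that rose was the catalytic subunit Psmb5 (0.40 ± 0.12, lost with DESeq2). With a BCV of 0.4 none of the genes in these 3 lists passed.

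The ratio of IP to input went up with coding length. In 5 classes of 2842 coding genes each, from the shortest to the longest, the median log2 was -0.43, -0.16, -0.02, 0.14 and 0.43. In the shortest class (111 to 792 bases) 19.1% of genes rose and 51.9% fell, and in the longest (from 2616 bases) 59.1% rose and 23.0% fell. Of the 80 ribosomal protein genes 71 were in the shortest class and 0 in the longest, and their median difference from the median of their own class was -0.62. For oxidative phosphorylation genes, 56 of 71 in the shortest class, it was -0.68. With a lowess offset on transcript length the list medians were -0.63 and -0.69. Pericyte, precursor and mature oligodendrocyte genes lay 3.84, 2.91 and 2.68 above their own classes, and neuron genes 2.24 below. The cause of the trend with length was not tested.

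**Figure D4:**
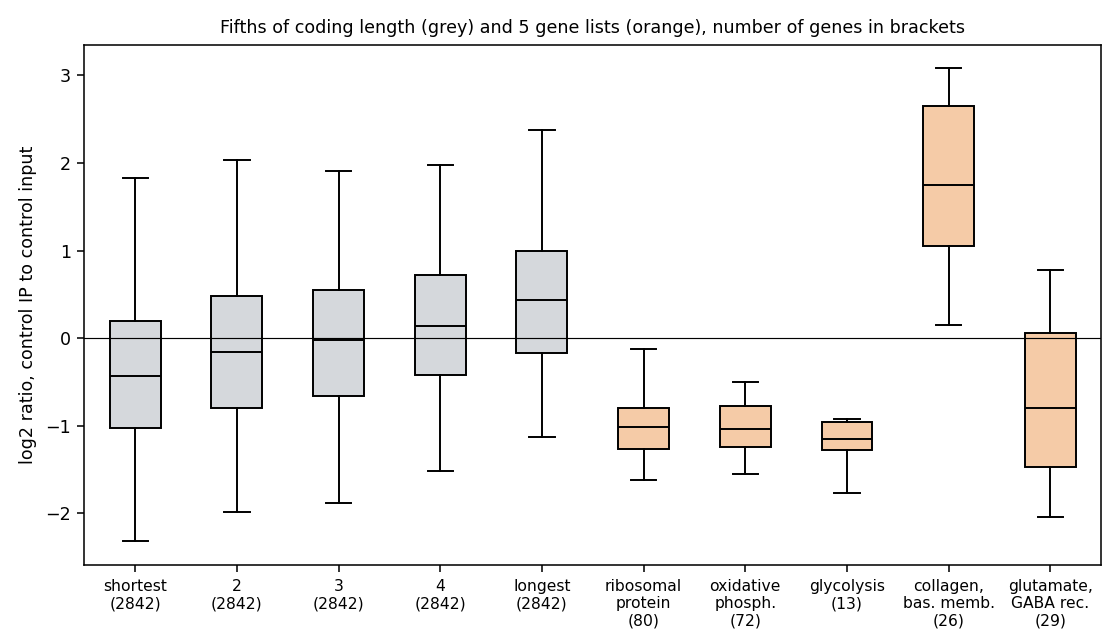
Log2 ratio of control IP to control input by class of coding length (grey, 2842 genes each) and for 5 lists (orange). Boxes span the quartiles with the median as a line, and whiskers the 5th to 95th percentile. Medians go up from -0.43 to 0.43 with length, and ribosomal protein, oxidative phosphorylation and glycolysis genes have lower medians than the shortest class.

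Among lipid genes, cholesterol synthesis, which supplies the myelin membrane, was moderately higher: 17 of 23 genes rose, 1 fell and the median log2 was 0.42, with 5 over 2-fold. Hmgcs1, which makes HMG-CoA, was at 302 and 302 CPM against 166 CPM (0.87 ± 0.04). Lss, which closes the sterol rings, was the highest at 70.6 and 61.4 against 25.8 CPM (1.35 ± 0.08). Fdft1, the squalene synthase, was the gene that fell, at 65.0 and 65.3 against 82.0 CPM (-0.33 ± 0.06). With a BCV of 0.4, 0 of the 23 passed.

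Collagen and basement membrane genes rose in 22 of 26 cases and fell in 1, with a median log2 of 1.75, and 8 passed with a BCV of 0.4. Coding length was long for 22 of the 26, and the median above their own classes was 1.36. Col4a1, the main collagen of vascular basement membranes, was at 150 and 152 CPM against 32 CPM (2.24 ± 0.07), and Lamc1, a laminin chain, at 318 and 311 against 50 CPM (2.65 ± 0.05). The highest was Col9a3, a fibril-associated collagen, at 77.9 and 78.9 against 9.09 CPM (3.11 ± 0.10). Sparc, a collagen-binding protein also made by endothelium and astrocytes, fell from 215 to 107 and 111 CPM (-0.98 ± 0.05).

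Of hyaluronan and proteoglycan matrix genes 15 rose and 10 fell of 27 (median 0.51). Chst3, a chondroitin sulfotransferase, was at 58.5 and 59.3 CPM against 2.83 CPM (4.38 ± 0.14), and Acan, aggrecan, at 66.5 and 67.9 against 6.86 CPM (3.29 ± 0.11). Ncan, neurocan, was at 491 and 475 against 301 CPM (0.68 ± 0.03). The testican Spock3 was the lowest at 28.6 and 26.4 against 151 CPM (-2.46 ± 0.07), and its relatives Spock1 (-1.46 ± 0.04) and Spock2 (-1.29 ± 0.03) fell too.

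Precursors carry glutamate and GABA receptors and receive synapses from neurons. Of 29 receptor subunit genes 20 fell and 7 rose, with a median log2 of -0.79 that was -1.22 with the length offset. In the longest class of coding length lay 19 of the 29. Of all genes in that class 59.1% rose, with a median of 0.43 and quartiles at -0.17 and 0.99. The subunits that rose were all of glutamate receptors: Grin3a of NMDA receptors at 124 and 127 CPM against 48.3 CPM (1.38 ± 0.06), Gria4 of AMPA receptors at 180 and 181 against 108 CPM (0.74 ± 0.05), 4 kainate receptor subunits (Grik1, Grik4, Grik2 and Grik3, 0.98 to 0.19) and the metabotropic Grm7 (0.21 ± 0.06). Gria2 did not pass at 693 and 679 against 659 CPM (0.06 ± 0.03), and was at -0.38 with the length offset. All 12 GABA receptor genes fell, Gabra5 the furthest, from 46.6 to 9.84 and 9.41 CPM (-2.27 ± 0.11).

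Voltage-gated and related channels were lower in 19 of 26 cases and higher in 7 (median -0.63, and -1.01 with the length offset). The inward rectifiers Kcnj10, or Kir4.1, at 441 and 457 CPM against 155 CPM (1.54 ± 0.04), and Kcnj16 at 54.1 and 52.3 against 24.3 CPM (1.13 ± 0.09), which clear extracellular potassium in glia, were the members over 2-fold higher.

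Nuclear-retained long non-coding RNAs, which ribosomes do not translate, were not lower as a group. Of 12, 9 rose and 3 fell, with a median log2 of 0.66 (0.34 with the length offset). Malat1 was at 14464 and 14127 CPM in the IPs against 8790 CPM (0.70 ± 0.02) and Neat1, the scaffold of paraspeckles, at 59.5 and 64.7 against 39.7 CPM (0.65 ± 0.08), where Neat1 was at -0.06 with the offset. Xist, the RNA that silences the inactive X chromosome, was at 727 and 665 against 50.8 CPM (3.77 ± 0.04), or 13.7-fold. Its level depends on the sex of the pooled mice, which the labels do not give, and a difference in sex between pools was not tested. The 3 that fell were Peg13 (-1.15 ± 0.04), Pvt1 (-0.42 ± 0.17) and Rian (-0.16 ± 0.04). The call of Pvt1 was lost with DESeq2.

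Of 6 tested structural and small non-coding RNAs 4 fell and 1 rose, with a median log2 of -2.21. Rpph1, the RNA of RNase P, which trims tRNA, was at 442 and 438 CPM against 3374 CPM (-2.94 ± 0.02), and Rmrp, the RNA of the related RNase MRP, at 50.8 and 50.5 against 426 CPM (-3.07 ± 0.04). Rn45s, the precursor of ribosomal RNA, was at 26136 and 26213 against 37596 CPM (-0.52 ± 0.01), in libraries made with a kit that removes ribosomal RNA. The small Cajal body RNA Scarna2 was at 25.4 and 25.7 against 12.7 CPM (1.01 ± 0.13). Of 20 replication-dependent histone genes, whose messages lack a poly(A) tail, 8 rose and 4 fell (median 0.20). Hist1h3b was the highest at 5.85 and 5.87 against 1.99 CPM (1.55 ± 0.28), and Hist2h4 the lowest at 4.92 and 5.19 against 11.6 CPM (-1.19 ± 0.19).

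Precursor loci of microRNAs gave few counts: of 1183 such genes 571 had a count and 133 were tested, with a median of 5 counts in the input. Of these, 43 rose and 4 fell, where 35.7% and 35.2% of all tested genes did. A locus could pass the filter through 1 library, so those with few input counts were tested only because of their IP counts. Mir219a-2, Mir219b and Mir338 below are among them. The numbers that rose and fell are therefore not a result about microRNA loci. The mature sequences (RefSeq, GRCm38.p6) of the 4 loci below are shown, with the seed (bases 2 to 8) in capitals, because miR-219 and miR-338 promote oligodendrocyte differentiation and miR-9 is made by neurons and neural progenitors. They were chosen after their values were seen.
miR-219a-5p: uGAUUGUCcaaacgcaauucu
miR-219b-5p: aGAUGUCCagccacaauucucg
miR-338-3p: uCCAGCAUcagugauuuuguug
miR-9-5p: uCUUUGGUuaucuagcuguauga
No 2 of these share a seed. Mir219a-2 had 12 and 17 counts in the IPs and 1 in the input, a ratio of CPM of 13.7 (95% exact interval 2.27 to 560). Mir219b, on the opposite strand of the same hairpin region (chromosome 2, mature sequences at 29845689 to 29845709 and 29845647 to 29845668), had 24 and 19 against 2 counts (10.2, 2.65 to 86.6). Mir338 had 22 and 35 against 3 counts (8.98, 2.92 to 44.9). Mir9-2 had 61 and 54 against 141 counts (0.386, 0.299 to 0.497). The adjusted p-value of Mir9-2 (edgeR quasi-likelihood, Benjamini-Hochberg) was 4.55e-07. None is given for Mir219a-2, Mir219b and Mir338, because the filter that let them in favoured a higher IP level. Their ratios and intervals carry the same selection and are given as description only. The loci Mir124a-2 and Mir124a-3 of the neuronal miR-124 did not pass, with 40 and 20 against 51 counts (0.556, 0.377 to 0.825) and 10 and 15 against 3 counts (3.94, 1.20 to 20.4). Ratios are of CPM from library totals, and the intervals cover counting error only. Reads of these libraries come from longer transcripts that span a hairpin, not from mature microRNA, and loci on opposite strands cannot be told apart where the counting strand is not known.

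Immediate early genes, induced within minutes of activity, were mostly lower, 17 of 23, with 3 higher and a median log2 of -0.84. Fos was at 6.14 and 7.81 CPM against 23.0 CPM (-1.71 ± 0.15) and the neuronal factor Egr4 at 5.55 and 6.29 against 26.5 CPM (-2.16 ± 0.15). Jun, also a stress-responsive factor of glia, was at 166 and 156 against 67.3 CPM (1.25 ± 0.05), Nr4a1 at 73.7 and 71.7 against 56.4 CPM (0.37 ± 0.07), and Zfp36, which destabilises mRNAs, at 0.86 ± 0.26 (lost with DESeq2). Heat shock and chaperone genes were near the input, with 5 higher and 17 lower of 26 and a median of -0.26. Cryab, alpha B-crystallin, a small chaperone abundant in oligodendrocytes, was at 211 and 217 CPM against 45.4 CPM (2.24 ± 0.06), and Hspb1 at 4.82 and 7.39 against 1.99 CPM (1.62 ± 0.28). The inducible Hspa1a was at 6.09 and 6.46 against 5.66 CPM and did not pass (0.15 ± 0.22, edgeR quasi-likelihood, Benjamini-Hochberg adjusted p = 0.54). Hspb8 was the lowest at 2.44 and 1.77 against 8.39 CPM (-2.0 ± 0.25).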

How the data were processed

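Per the labels' protocols, libraries were made from IP and input RNA with a stranded total RNA kit for low input (Takara SMARTer Pico). The submitters' processing notes name Trimmomatic 0.39 (a read trimmer), STAR 2.7.10b (an aligner) and genome build mm10. Not given in the sources used here are the counter, its annotation, its strand setting and any use of molecular identifiers. The authors deposited raw read counts per gene symbol, without normalization. The 3 icKO columns were not used. Of 24421 genes, 10 without an input value were left out and 5417 had no count in the 3 libraries. Of the genes used, 23975 (98.2%) matched GENCODE M21, which gave coordinates and lengths. Lengths are those of the annotated transcript with the longest coding sequence. In the file 27 symbols had turned into dates and 4 entries shared a symbol.

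Counts were scaled with TMM factors and tested with edgeR 4.0.16 (R 4.3.3; glmQLFit and glmQLFTest, a two-sided test of genes that pass filterByExpr, with Benjamini-Hochberg adjustment and a threshold of 0.05), 2 libraries against 1, with 1 residual degree of freedom. The prior degrees of freedom were infinite, so no gene had a quasi-likelihood dispersion of its own. Each took the value of a trend fitted on abundance over all genes. The fit was tested on simulated data. Alternatives were DESeq2 1.42.0, BCV fixed at 0.1 and 0.4, other scalings and filters, and a lowess offset on transcript length. There were 31 lists with 807 symbols. The file has 797 of them, and 777 were tested. Members and lists were chosen with earlier results of these data known, and no list was tested as a set. Named are the 8 markers, a fixed list, the 10 largest rises and falls among called genes with a mean of at least 20 CPM, the 10 highest genes of IP and of input, and each list's extremes and opposing members. Other members are named for their role and were chosen after their values were seen. A few genes that this rule names are not reported here.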

Additional observations from a re-analysis of the deposited data

How the results depend on the processing

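No paired analysis was possible because the single input carries no replicate number that ties it to either IP. The result that moved most was the number of calls with the BCV fixed at 0.4, where 476 genes were higher and 432 lower, with or without the 2-fold rule (5529 and 5454, and 2338 and 2295 over 2-fold, in the quasi-likelihood test). DESeq2 called 4132 higher and 4016 lower, and a BCV of 0.1 gave 4677 and 4697. Other scalings and filters and the length offset kept each of these counts within 1.5 times. Leaving out an IP replicate leaves no residual degree of freedom, so only untested ratios over 2-fold were counted: 2500 higher and 2408 lower with both, 2475 to 2490 and 2452 to 2487 with either left out. Leaving out the input leaves no comparison. With the length offset the sign turned for App (-0.33), Gria2 (-0.38), Gria3 (-0.0509), Hist1h4h (0.0173), Lama1 (-0.021), Meg3 (-0.39) and Neat1 (-0.0551). Among genes with a mean of at least 5 CPM the median turned to 0.55 for neural stem cells and neuroblasts and to -0.0147 for histones. Of 162 named genes, 13 lost their call with DESeq2 and 91 with a BCV of 0.4. Library totals shifted all ratios by -0.04 (log2). With 1 input library, its own deviation from other inputs cannot be told apart from the pull-down, and genes with few input counts, such as Cnn1, Cdk1 and Rpl34, have ratios of wide error.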

Other observations

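All 6 genes of the sex-linked list, which holds Xist, Tsix and the Y-linked genes below, rose, with a median log2 of 1.18. The list does not stand for all genes of the sex chromosomes. Xist and its antisense partner Tsix (4.73 and 5.32 CPM in the IPs against 0.510 CPM in the input, log2 3.29 ± 0.40) overlap, and their reads cannot be told apart where the counting strand is not known. The Y-linked genes, made in male cells only, rose by less. Eif2s3y was at 32.5 and 25.8 CPM against 11.8 CPM (1.30 ± 0.13), Kdm5d at 42.9 and 42.3 against 20.5 CPM (1.05 ± 0.10), Uty at 21.4 and 23.3 against 15.6 CPM (0.52 ± 0.13) and Ddx3y at 53.0 and 50.7 against 41.5 CPM (0.32 ± 0.08). Both Xist and the Y-linked genes were present in all 3 libraries. The labels do not give the sex of the pooled mice, and a difference in sex between the pools was not tested.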
